A study of Mus musculus with 4 samples.

Results

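The genes described here are 10 genes that handle arginine and the polyamines made from it, namely Arg1, Arg2, Nos2, Slc7a2, Ass1, Asl, Odc1, Srm, Sms and Sat1. They were taken by name, matched to the gene identifiers of the expression tables, and make up 10 of the 16739 genes with a value in at least 1 library. All 10 passed the filter on low counts and were tested. The libraries are RNA sequencing of tumor-associated macrophages (TAMs), sorted as CD45+ CD11b+ F4/80+ cells from melanomas that B16-F10 cells had formed under the skin of C57BL/6 mice. B16-F10 is a mouse melanoma line derived from C57BL/6. There were 2 WT libraries and 2 libraries labelled Trim24-deficient. Per the labels, the mice were 6 to 8 weeks old when injected and the cells were sorted at day 16, whereas the study's methods give earlier days for its analysis of immune cells in tumors and no separate day for sequencing. The study's methods describe the mutant as Trim24 flox/flox LysM-Cre and the controls as WT littermates. LysM-Cre acts in macrophages and other myeloid cells such as neutrophils, so the design targets Trim24 in the myeloid lineage and not in TAMs alone. Whether a library held RNA of a single mouse, and whether the WT littermates carried a floxed allele or the Cre, is not given in the sources used here. The p-values below therefore measure only the spread between these libraries, which may be technical. The comparison asks which arginine and polyamine genes differ in transcript level between WT and Trim24-deficient TAMs.

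Macrophages can send arginine down opposed routes. Arginase hydrolyses it to ornithine and urea, and inducible nitric oxide synthase oxidises it to nitric oxide and citrulline. Arg1 is a standard mark of macrophages activated by IL-4, Nos2 of macrophages activated by interferon-γ and bacterial products, and macrophages in tumors often express Arg1. Citrulline is turned back into arginine by argininosuccinate synthase and lyase, and ornithine is the substrate from which the polyamines putrescine, spermidine and spermine are made.

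The libraries held 4476122 to 5172407 expected counts each, and 3 counts corresponded to 0.606 to 0.639 CPM (the count scaled to a common library total after TMM scaling). Sorted cells carried the transcripts of macrophages. The summed level of 12 macrophage markers ranged from 20240 to 27020 CPM. Trim24 itself did not separate the groups. Its level was 5.82 and 2.12 CPM in the WT libraries, against 3.43 and 0.411 CPM under the Trim24-deficient label (edgeR quasi-likelihood log2 fold change -1.06 with a standard error, SE, of 0.82 and an adjusted p of 0.635). The mutants are therefore called the deficient-labelled libraries throughout. Transcripts that differ between the sexes followed the genotype labels. Xist, transcribed in female cells, stood at 10.9 and 6.51 CPM in WT and at 437 and 256 CPM in the deficient-labelled libraries, whereas the Y-linked Ddx3y stood at 73.6 and 102 CPM in WT and at 0.426 and 0.411 CPM in the others. Although the study's methods describe the compared mice as matched by sex, genotype and sex thus cannot be told apart in any value below.

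Only 4 of the 10 genes, Ass1, Odc1, Sat1 and Sms, had a promoter in the RefSeq table used here (GRCm38.p6, 250 bases before to 50 after a start site). The Ass1 window, chr2:31470020-31470319 on the plus strand, is shown because Ass1 had the largest fold change of these 4 genes, and the Odc1 window, chr12:17544623-17544922 on the plus strand, because Odc1 opens polyamine synthesis and its level differed little between libraries. The Odc1 window surrounds a start site that lies inside the annotated gene. Capitals mark the E-box CACGTG, the element bound by Myc and related factors.
Ass1 promoter: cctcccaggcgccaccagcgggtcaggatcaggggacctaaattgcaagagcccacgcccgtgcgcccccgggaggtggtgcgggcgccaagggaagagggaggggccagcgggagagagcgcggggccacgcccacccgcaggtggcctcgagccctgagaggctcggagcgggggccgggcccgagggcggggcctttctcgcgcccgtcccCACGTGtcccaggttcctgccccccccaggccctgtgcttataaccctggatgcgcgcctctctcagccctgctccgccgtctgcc
Odc1 promoter: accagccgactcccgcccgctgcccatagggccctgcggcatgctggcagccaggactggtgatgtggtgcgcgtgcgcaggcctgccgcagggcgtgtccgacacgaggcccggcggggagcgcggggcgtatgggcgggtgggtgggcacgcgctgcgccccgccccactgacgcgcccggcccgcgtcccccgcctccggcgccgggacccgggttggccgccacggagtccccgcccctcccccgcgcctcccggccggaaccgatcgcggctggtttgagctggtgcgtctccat
The E-box (read the same on both strands) began 36 bases before the start site of Ass1, at position -36, and was not found in the windows of Odc1 and Sat1. One of the Sms windows, chrX:157492238-157492537 on the minus strand, held it at -196. Of all 32851 promoter windows of this length, 7.15% held that E-box. The palindrome TTCNNNNGAA, the form preferred by Stat6, was searched as well and occurred in 6.95% of all windows, and in none of those of the 4 genes. These searches describe letters in a window and not binding.

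None of the 10 genes was called at an adjusted p under 0.05 and a fold change over 1.5 by edgeR's quasi-likelihood test, which called 0.372% of the 11302 genes tested. DESeq2, which called 0.988% of its genes, and limma on log2(FPKM + 1) or log2(FPKM + 0.1), which called 0.207% or 0.18%, also called 0 of the 10. At an unadjusted p under 0.05, 5 of the 10 passed, all of them higher in the deficient-labelled libraries, against 6.58% of all genes in that direction. Both of these libraries lay above both WT libraries for 6 of the 10 genes (Arg1, Arg2, Nos2, Slc7a2, Ass1 and Sat1), which held for 21.5% of all genes, and below both for 2 (Odc1 and Srm), which held for 23% of all genes. Asl and Sms overlapped between groups. The median log2 fold change was 0.74 over the 10 genes and -0.01 over all genes tested.

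**Figure D1:**
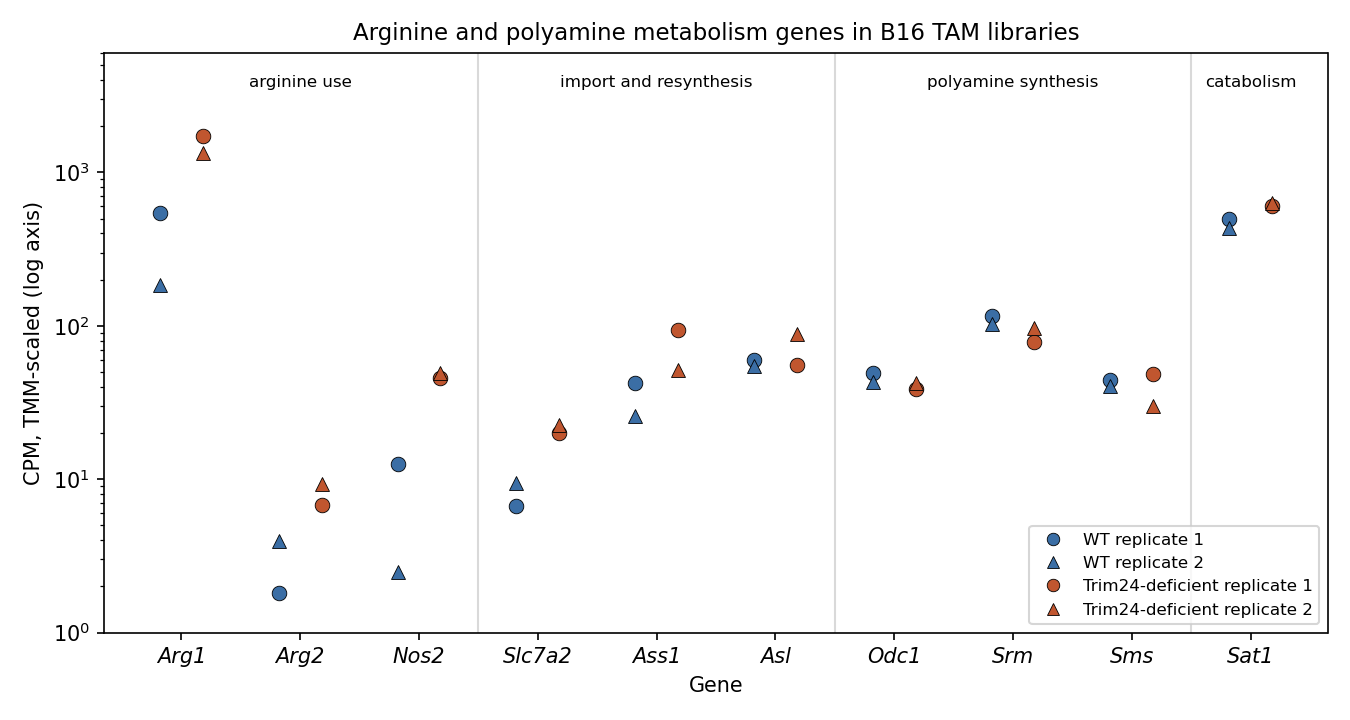
Transcript levels of the 10 genes in CPM (TMM-scaled, log axis), with 1 point per library, blue for WT and orange for Trim24-deficient, circles for replicate 1 and triangles for replicate 2. The genes of arginine use, import and resynthesis other than Asl have both orange points above both blue ones, while the points of Odc1, Srm and Sms lie close together.

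Arg1 (chr10:24915207-24927470, minus strand, 8 exons, GRCm38) encodes the cytosolic arginase and had the highest FPKM of Arg1, Arg2 and Nos2 in every library. Its level was 545 CPM in WT replicate 1 and 185 CPM in WT replicate 2, against 1720 and 1345 CPM in Trim24-deficient replicates 1 and 2. Both deficient-labelled libraries lay above both WT libraries, and WT replicate 1 stood 2.94 times as high as WT replicate 2. The mean was 365 ± 254 CPM in WT and 1533 ± 265 CPM in the deficient-labelled libraries (SD, n = 2 each). The fitted fold change was 4.19 with a 95% interval of 2.15 to 8.17 (log2 fold change 2.07, SE 0.43), but edgeR's adjusted p of 0.0990 missed the threshold. Expressed per length, Arg1 FPKM was higher than that of 98.6% and 96% of genes in the WT libraries and 99.7% and 99.5% in the others. In bulk RNA such as this, fewer cells of a type and less RNA per cell cannot be told apart.

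Whether Arg1 was called depended on single libraries. Of all genes, 0.563% were called without WT replicate 1, 0.215% without WT replicate 2, 3.46% without Trim24-deficient replicate 1 and 5.54% without Trim24-deficient replicate 2. Without WT replicate 1 its log2 fold change was 3.06 (adjusted p = 0.00384, edgeR), without Trim24-deficient replicate 1 it was 1.89 (adjusted p = 5.27e-04) and without Trim24-deficient replicate 2 it was 2.24 (adjusted p = 3.56e-05). Without WT replicate 2, the library with the least Arg1, it was 1.49 and not called (adjusted p = 0.217). In each of these fits the group left with a single library is assumed to vary like the other group.

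Arg2 (chr12:79130788-79156301, plus strand, 8 exons) encodes the mitochondrial arginase and was scarce. It was covered by 9 and 19 counts in WT and by 32 and 45 counts in the deficient-labelled libraries, that is 1.82 and 3.96 CPM against 6.82 and 9.25 CPM. The groups did not overlap, with a log2 fold change of 1.47 (SE 0.49, adjusted p = 0.267, edgeR). Arg2 shares its position with Vti1b on the opposite strand, which stood at 96.1 and 93.5 CPM in WT and 105 and 128 CPM in the others. Whether the library kit kept the strand is not given in the sources used here, so a share of the Arg2 counts from Vti1b was not tested. Arg1 exceeded Arg2 in every library, by 286 and 44.5 times in WT and by 240 and 138 times in the deficient-labelled libraries on the FPKM scale. That ratio overlapped between the groups.

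Nos2 (chr11:78920787-78960226, plus strand, 27 exons), the inducible nitric oxide synthase that competes with arginase for arginine, had the largest fold change of the 10 genes. Its level was 12.5 CPM in WT replicate 1 and 2.5 CPM in WT replicate 2, against 45.4 and 49.5 CPM in Trim24-deficient replicates 1 and 2, from 62, 12, 213 and 241 counts. The deficient-labelled libraries were close to each other and above both WT libraries, which differed from each other 5.01 times. The mean was 7.51 ± 7.08 CPM in WT and 47.4 ± 2.94 CPM in the others (SD, n = 2 each). The fitted fold change was 6.27 with a 95% interval of 2.92 to 13.5 (log2 fold change 2.65, SE 0.49, adjusted p = 0.0697, edgeR). Nos2 was called in the fit with no filter on low counts, which called 0.371% of genes (log2 fold change 2.66, adjusted p = 0.0362, edgeR). Leaving out a library gave log2 fold changes of 4.25 without WT replicate 1 and 1.92 without WT replicate 2. They were 2.71 without Trim24-deficient replicate 1 and 2.58 without Trim24-deficient replicate 2. These fits leave a group with a single library, so their calls are not given.

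Arg1 and Nos2, the marks of opposed activation states, thus both stood higher in the deficient-labelled libraries, and both were lowest in WT replicate 2. Arg1 FPKM was 124 and 209 times that of Nos2 in the WT libraries and 107 and 77 times in the deficient-labelled libraries. Both deficient-labelled ratios lay below both WT ratios, with a difference of -0.72 on the log2 scale of the ratio (FPKM plus 0.1). The exact two-sided permutation test gave p = 0.333, which is the smallest p that 2 libraries against 2 allow. With 1 added to each FPKM instead, the difference was -0.081, and Nos2 lay at 0.64 FPKM in WT replicate 2. Arg1 transcripts exceeded Nos2 transcripts in all 4 libraries.

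Genes that support nitric oxide synthesis showed other values. Gch1, the first enzyme of tetrahydrobiopterin synthesis, stood at 40.6 and 34.6 CPM in WT and 50.3 and 27.1 CPM in the deficient-labelled libraries, which overlap. Its log2 fold change was 0.04 (SE 0.29, adjusted p = 0.969, edgeR), with a 95% interval from -0.60 to 0.68. The dimethylarginine hydrolases, which remove natural inhibitors of nitric oxide synthases, were scarce and lower. Ddah2 was at 10.7 and 7.92 CPM in WT and at 2.56 and 5.34 CPM in the others (log2 fold change -1.23, SE 0.45, adjusted p = 0.318, edgeR), and Ddah1 was at no more than 2.62 CPM in any library. The other synthase genes were low, with Nos1 at 9.21 to 14.3 CPM and Nos3 at or below 7 counts in every library and not tested.

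Slc7a2 (chr8:40862341-40922070, plus strand, 12 exons) encodes Cat2, the cationic amino acid transporter that activated macrophages induce to import arginine. Its level was 6.68 and 9.45 CPM in WT and 20.1 and 22.6 CPM in the deficient-labelled libraries, with no overlap and little spread within groups. The fitted fold change was 2.66 with a 95% interval of 1.66 to 4.24 (log2 fold change 1.41, SE 0.30, adjusted p = 0.107, edgeR). Leaving out a library gave log2 fold changes from 1.20 to 1.67. Slc7a2 differed from Arg1 and Nos2 in its WT libraries, where WT replicate 2 was the higher. A long noncoding RNA gene overlaps it on the opposite strand, and a share of its counts from there was not tested.

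The constitutive transporter of the same family, Slc7a1 (Cat1), stood the other way round. Its level was 48.6 and 42.5 CPM in WT and 30.9 and 26 CPM in the deficient-labelled libraries, again without overlap (log2 fold change -0.68, SE 0.21, adjusted p = 0.226, edgeR). On the FPKM scale Slc7a1 exceeded Slc7a2 by 7.91 and 4.85 times in WT but by 1.65 and 1.24 times in the deficient-labelled libraries. This pair was chosen after its values were seen, and the difference of the log2 ratios was -2.02 (exact two-sided permutation test p = 0.333, the smallest possible). Slc7a7, which with Slc3a2 exports arginine in exchange for neutral amino acids, was at 76.9 and 86.9 CPM in WT and 91.8 and 105 CPM in the others (log2 fold change 0.26, adjusted p = 0.602, edgeR). Its partner Slc3a2 overlapped between groups at 631 to 706 CPM.

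Ass1 (chr2:31470270-31520670, plus strand, 16 exons), whose promoter with its E-box is printed above, encodes argininosuccinate synthase, the limiting step in rebuilding arginine from citrulline. Its level was 42.6 and 25.8 CPM in WT and 94.1 and 51.2 CPM in the deficient-labelled libraries. The groups did not overlap, yet WT replicate 1 came near Trim24-deficient replicate 2. The log2 fold change was 1.08 (SE 0.32, 95% interval 0.36 to 1.81, adjusted p = 0.222, edgeR). This log2 fold change was 1.46 without Trim24-deficient replicate 2 and 0.58 without Trim24-deficient replicate 1. It was 1.51 without WT replicate 1 and 0.77 without WT replicate 2.

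Asl (chr5:130011258-130024381, minus strand, 16 exons), the lyase that completes this resynthesis, overlapped between the groups. Its level was 60.2 and 54.6 CPM in WT and 55.4 and 88.1 CPM in the deficient-labelled libraries, so that Trim24-deficient replicate 1 fell among the WT libraries. The log2 fold change was 0.32 (SE 0.24, adjusted p = 0.621, edgeR), and it was -0.050 without Trim24-deficient replicate 2. The ratio of Ass1 to Asl FPKM was 0.69 and 0.461 in WT, and 1.66 and 0.565 in the deficient-labelled libraries, which overlap. Among the urea cycle genes around these steps, Cps1, Otc and Nags had no value in any library, and the ornithine carrier Slc25a15 was at 10.9 and 14.6 CPM in WT and 8.31 and 7.81 CPM in the others.

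**Figure D2:**
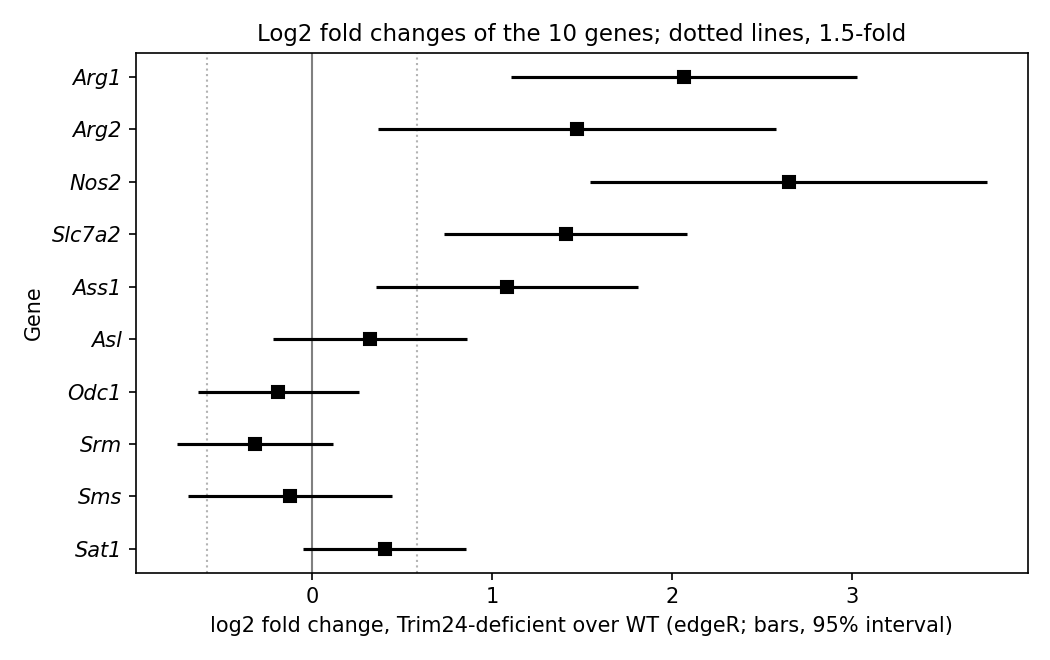
Log2 fold change of each gene, Trim24-deficient over WT, from edgeR, with bars for the 95% interval and dotted lines at a fold change of 1.5. The intervals of Arg1, Arg2, Nos2, Slc7a2 and Ass1 lie above 0, and those of Asl, Odc1, Srm, Sms and Sat1 include 0.

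Odc1 (chr12:17544808-17551502, plus strand, 12 exons) encodes ornithine decarboxylase, which draws the product of arginase into polyamines. Its level was 49 and 43.1 CPM in WT and 38.5 and 42.4 CPM in the deficient-labelled libraries. The groups did not overlap, but the nearest libraries of each differed by less than the libraries within a group. The log2 fold change was -0.19 (SE 0.20, adjusted p = 0.745, edgeR), and its 95% interval of -0.64 to 0.26 leaves room for a decrease of more than 1.5-fold but for no increase of that size. Arg1 FPKM was 19.2 and 7.44 times that of Odc1 in WT, and 77.1 and 54.8 times in the deficient-labelled libraries, a pair also chosen after its values were seen.

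Neither synthase behind Odc1 lay higher in both deficient-labelled libraries. Srm (chr4:148591513-148594619, plus strand, 7 exons), which makes spermidine from putrescine, stood at 115 and 103 CPM in WT and 78.2 and 96.8 CPM in the deficient-labelled libraries. Its groups did not overlap, with a log2 fold change of -0.32 (SE 0.19, 95% interval -0.75 to 0.11, adjusted p = 0.539, edgeR). Sms (chrX:157443851-157492287, minus strand, 11 exons), which makes spermine from spermidine, was at 44.6 and 40.6 CPM in WT and at 48.6 and 29.9 CPM in the others, so that the deficient-labelled libraries enclosed the WT libraries. Its log2 fold change was -0.12 (SE 0.25, 95% interval -0.69 to 0.45, adjusted p = 0.881, edgeR) and turned to 0.19 without Trim24-deficient replicate 2. A pseudogene of Sms is annotated on the X chromosome. Part of the Sms counts was not whole, as RSEM gives where it divides reads between places they fit. The same held for Odc1 and Slc7a2.

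Sat1 (chrX:155213126-155216449, minus strand, 6 exons), the acetyltransferase that starts polyamine breakdown and export, had the highest FPKM of the 10 genes in WT. Its level was 499 and 433 CPM in WT and 604 and 627 CPM in the deficient-labelled libraries. Both of the latter lay above both WT libraries, by a log2 fold change of 0.40 (SE 0.20, 95% interval -0.05 to 0.86, adjusted p = 0.454, edgeR). Sms and Sat1 are both X-linked, in libraries whose sex-linked transcripts follow the genotype. The 356 X-linked genes tested had a median log2 fold change of -0.07, against -0.0047 for the 10919 autosomal genes.

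Synthesis was set against breakdown by the ratio of Odc1 to Sat1 FPKM. It was 0.0445 and 0.0451 in the WT libraries, and 0.0290 and 0.0307 in the deficient-labelled libraries. The replicates were close to each other and the groups apart, with a difference of -0.59 in log2 ratio (exact two-sided permutation test p = 0.333, the smallest possible). Along synthesis, the ratio of Odc1 to Srm was 0.219 and 0.215 in WT and 0.254 and 0.226 in the deficient-labelled libraries, without overlap, with a difference of 0.14 in log2 ratio (exact two-sided permutation test p = 0.333). Srm to Sms was 6.67 and 6.57 in WT and 4.16 and 8.37 in the others.

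**Figure D3:**
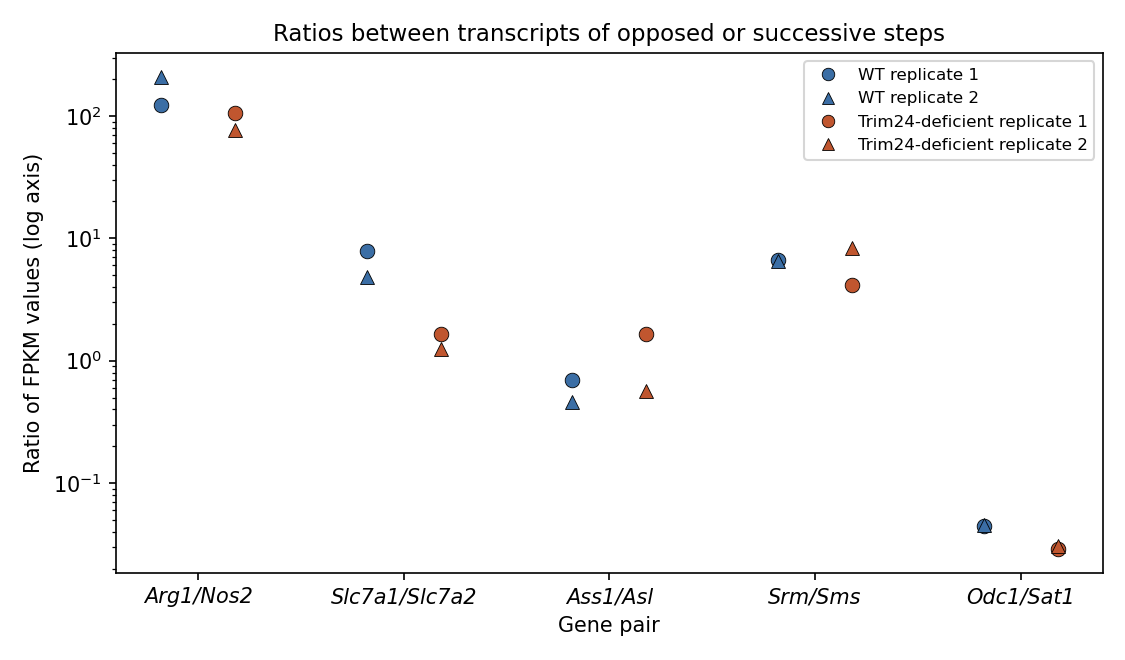
Ratios of FPKM values between gene pairs (log axis), with 1 point per library, blue for WT and orange for Trim24-deficient, circles for replicate 1 and triangles for replicate 2. Both orange points lie below both blue ones for Arg1/Nos2, Slc7a1/Slc7a2 and Odc1/Sat1, whereas Ass1/Asl and Srm/Sms overlap.

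Ordered by mean FPKM, the WT libraries ran from Sat1 (420 ± 30, SD, n = 2) over Arg1 (256 ± 172), Srm (86.8 ± 4.09), Asl (38 ± 1.46), Ass1 (22 ± 6.98), Odc1 (18.8 ± 1.15) and Sms (13.1 ± 0.481) to Arg2 (2.17 ± 1.2), Nos2 (1.84 ± 1.7) and Slc7a2 (1.08 ± 0.297). Among neighbours, mean ± SD ranges overlapped for Sat1 and Arg1, Arg1 and Srm, Ass1 and Odc1, Arg2 and Nos2, and Nos2 and Slc7a2. In the deficient-labelled libraries the order began with Arg1 (980 ± 180), followed by Sat1 (502 ± 8.52), Srm (62.8 ± 8.79), Asl (42.8 ± 13.4), Ass1 (42.4 ± 18.1), Odc1 (15 ± 0.863), Sms (10.9 ± 3.79), Nos2 (10.7 ± 0.488), Arg2 (5.39 ± 1.1) and Slc7a2 (2.58 ± 0.184). Of these neighbours, the mean ± SD ranges of Srm and Asl, Asl and Ass1, Odc1 and Sms, and Sms and Nos2 overlapped. Sat1 exceeded Arg1 in both WT libraries, at 442 and 399 FPKM against 378 and 134. Arg1 exceeded Sat1 in both deficient-labelled libraries, at 1107 and 853 FPKM against 496 and 508.

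The rest of the pathway was read from 48 further genes. Of these, 44 were in the tables and 40 were tested, and edgeR called 0 of them, as did DESeq2 and limma. At an unadjusted p under 0.05, 3 passed (Slc7a1, Ddah2 and Sat2), all lower in the deficient-labelled libraries, against 5.62% of all genes in that direction. Both deficient-labelled libraries lay above WT for 6 of the 40 and below for 10, against 21.5% and 23% of all genes, and 24 overlapped. The median log2 fold change was -0.03.

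The ornithine exits other than polyamine synthesis overlapped between the groups throughout. All 7 genes between ornithine, proline and glutamate overlapped, among them Oat, the aminotransferase that takes ornithine towards proline, at 182 and 149 CPM in WT and 145 and 169 CPM in the others (log2 fold change -0.07, adjusted p = 0.913, edgeR). Both tested genes of the branch to creatine, Gatm and Gamt, lay lower in both deficient-labelled libraries, as did 23% of all genes. Neither was called. The 95% interval of the log2 fold change ran from -0.81 to 0.16 for Gatm and from -1.33 to 0.17 for Gamt. Both intervals include no change. Gatm, which moves the guanidino group of arginine to glycine, was at 652 and 625 CPM in WT and 444 and 575 CPM in the others (log2 fold change -0.33, SE 0.22, adjusted p = 0.574, edgeR). Gamt, the next enzyme, was at 12.1 and 13.5 CPM against 6.82 and 10.3 CPM (log2 fold change -0.58, SE 0.33, adjusted p = 0.508, edgeR).

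Of 5 genes for antizymes and antizyme inhibitors, the proteins that control Odc1 activity, the 3 that were tested overlapped between the groups. The other two, Oaz3 and Azin2, had at most 5 counts in any library. Oaz1, the antizyme that marks Odc1 for degradation, was at 315 and 255 CPM in WT and 240 and 318 CPM in the deficient-labelled libraries (log2 fold change -0.03, 95% interval -0.53 to 0.47, adjusted p = 0.969, edgeR). Azin1, which shields Odc1 from antizyme, was at 139 and 134 CPM in WT and 140 and 122 CPM in the others. Eif5a, the translation factor modified with spermidine, had the highest FPKM of the list and stood at 1401 and 1146 CPM in WT and 1104 and 1455 CPM in the others. Amd1, which supplies the aminopropyl donor of Srm and Sms, was at 84 to 123 CPM and overlapped between groups. Its near-identical copy Amd2 was given 0, 10.4, 12.6 and 0 counts in WT replicates 1 and 2 and Trim24-deficient replicates 1 and 2, so that a small share of reads may be misplaced between them.

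Among genes of polyamine oxidation, acetylation and transport, Sat2 was scarce, at 11 and 15 counts in WT and 5 and 4 in the others. Smox, the spermine oxidase, was at 52.5 and 52.3 CPM in WT and 56 and 68.4 CPM in the deficient-labelled libraries (log2 fold change 0.25, SE 0.20, adjusted p = 0.642, edgeR). Atp13a3, a polyamine importer, was at 36.7 and 50.8 CPM in WT and 34.3 and 29.2 CPM in the others (log2 fold change -0.46, SE 0.23, adjusted p = 0.444, edgeR).

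**Figure D4:**
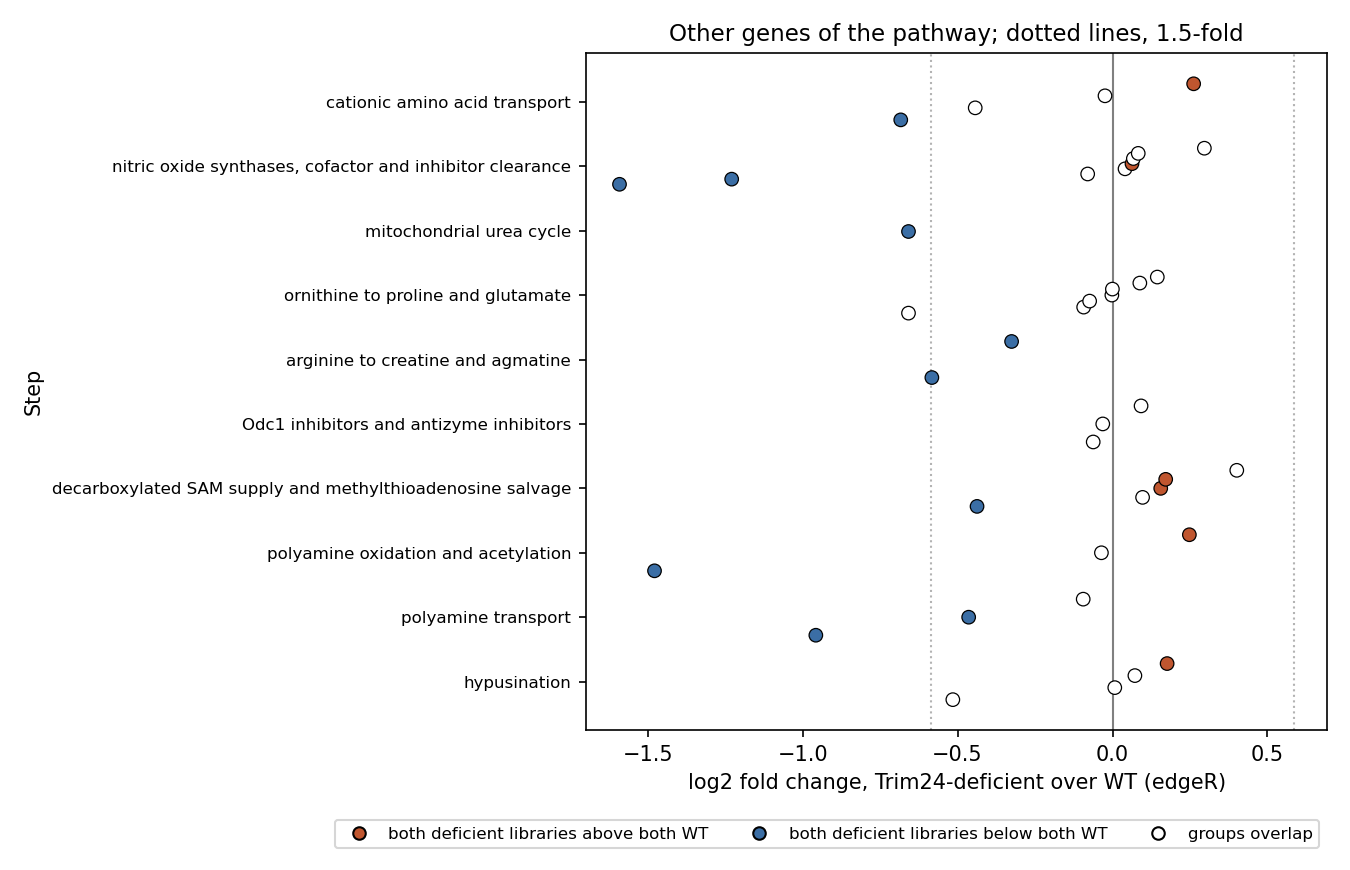
Log2 fold changes (Trim24-deficient over WT, edgeR) of the 40 tested genes of arginine and polyamine metabolism outside the 10, by step, with dotted lines at a fold change of 1.5. Orange marks the 6 genes with both Trim24-deficient libraries above WT, blue the 10 with both below, and white the 24 that overlap, and no gene lies beyond the upper dotted line.

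Of 18 known regulators of Arg1, Nos2 and Odc1, edgeR called 0, and 5 had an unadjusted p under 0.05, all higher (6.58% of all genes). In both deficient-labelled libraries 9 lay above WT (21.5% of all genes) and 1 below (23% of all genes). Their median log2 fold change was 0.27. Irf1, an interferon-induced activator of Nos2, overlapped at 214 and 116 CPM against 510 and 212 CPM. Its log2 fold change was 1.13 (SE 0.40, adjusted p = 0.303, edgeR). Hif1a was at 136 and 117 CPM in WT and 191 and 187 CPM in the others (log2 fold change 0.58, adjusted p = 0.256, edgeR). Stat6, through which IL-4 raises Arg1, was at 240 and 256 CPM in WT and 284 and 310 CPM in the others (log2 fold change 0.26, SE 0.19, adjusted p = 0.617, edgeR), and Il4ra at 579 and 471 CPM against 658 and 805 CPM. Myc, which drives Odc1, overlapped at 66.4 and 80 CPM against 55.2 and 69.2 CPM.

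The genes with the pattern most like that of Arg1 were sought by the Euclidean distance of log2 CPM, centred on each gene over the 4 libraries, among the 9113 genes whose log2 CPM averaged 3 or more. They were Sectm1a (distance 0.529), Cd38 (0.625), Acod1 (0.665), Tarm1 (0.682) and Aldoc (0.727). For Nos2 they were Upp1 (0.873), Arg1 itself (0.888), Ptgs2 (1.3), Tarm1 (1.31) and H2-Ab1 (1.35). Acod1, which makes itaconate in inflammatory macrophages, ran like Arg1 at 102 and 36.2 CPM in WT and 400 and 167 CPM in the others. Among them Upp1, Ptgs2, Tarm1 and H2-Ab1 were called higher by edgeR, with adjusted p-values of 0.0130, 0.0112, 0.0371 and 0.00904. Cd38 was not called, at 90.9 and 42.1 CPM against 213 and 216 CPM (adjusted p = 0.0697, edgeR). All of the genes named here had their lowest level in WT replicate 2. The distances are a description over 4 libraries and include the difference between the groups.

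Sums of macrophage, monocyte and neutrophil markers lay higher in both deficient-labelled libraries, and the sum of proliferation genes lay lower. Sums for several other cell types overlapped. The counts of markers below are to be read against the 21.5% of all genes that lay above WT in both deficient-labelled libraries and the 23% that lay below. The summed level of the 12 macrophage markers was 24010 and 20240 CPM in WT against 27020 and 25720 CPM in the deficient-labelled libraries, and 7 of them lay higher in both of the latter. Of 5 monocyte markers, 4 lay higher in both deficient-labelled libraries, with a summed level of 519 and 644 CPM in WT and 1648 and 1041 CPM in the others. The summed level of 10 neutrophil markers was 177 and 206 CPM in WT and 272 and 410 CPM in the others, with 3 of the 4 tested higher in both. The granule genes Elane and Mpo had no value, and Ly6g reached 2 and 0.918 CPM in the deficient-labelled libraries from 0 in WT. S100a8 was at 17.4 and 15.6 CPM in WT and 35.1 and 118 CPM in the others. Cxcr2, the tested neutrophil marker that overlapped, was at 63.5 and 83.9 CPM against 42.9 and 76.9 CPM. Of 8 proliferation genes, 6 lay lower in both deficient-labelled libraries, with sums of 1323 and 1269 CPM against 892 and 1026 CPM, and Mki67 was called lower (142 and 181 CPM against 71.6 and 71.1 CPM, adjusted p = 0.0453, edgeR). The part of monocytes, neutrophils, dividing cells or melanoma cells in the values of the 10 genes and of Slc7a1, higher or lower, was not tested. Of 7 melanoma markers, 4 lay lower in both deficient-labelled libraries, with a median log2 fold change of -0.46 over the list, and none was called. Their sums overlapped between groups, at 812 and 773 CPM in WT and 611 and 804 CPM in the others, as did those of 8 T and NK cell markers (94.7 and 68.6 against 220 and 73.8 CPM), 6 dendritic cell markers and 4 B cell markers. Sums of fibroblast, endothelial and eosinophil markers were at or below 12.1 CPM in every library.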

How the data were processed

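With Bowtie, the authors aligned reads to the mouse genome (GRCm38/mm10). From RSEM, the authors deposited for each library an expected count (not normalized, 76.6% to 77.7% of values whole) and an FPKM (fragments scaled to gene length and library total) for each gene. Genes missing from a library's table were set to 0. Of 16739 genes, 16698 matched a RefSeq symbol by Entrez identifier. Expected counts were rounded, filtered (filterByExpr, 11302 genes), TMM-scaled and tested without a block in edgeR 4.0.16 (R 4.3.3), with Benjamini-Hochberg adjustment over all genes tested. Genes were called at an adjusted p under 0.05 and a fold change over 1.5. Standard errors are the log2 fold change divided by the square root of F. Alternatives were the replicate block, DESeq2 1.42.0, 2 other scalings, 2 other filters, limma 3.58.1 on log2(FPKM + 1) and log2(FPKM + 0.1), and leaving out each library. Ratios between genes used FPKM. The script was tested on simulated data. The genes, lists, named-gene rule and alternatives were chosen with earlier results of these data known. The named-gene rule takes the 10 genes, any gene of the pathway or regulator lists, and the 5 genes nearest to Arg1 and to Nos2. Positions and promoters are from RefSeq for GRCm38, and gene overlaps from GENCODE. Values of some members of the regulator and marker lists are not reported here.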

Additional observations from a re-analysis of the deposited data

How the results depend on the processing

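Over all genes edgeR called 42 (33 higher, 9 lower). The fit with the replicate number as a block called 634 (425 higher, 209 lower), DESeq2 165, limma 23 with a pseudocount of 1 (14 higher, 9 lower) and 20 with 0.1 (11 higher, 9 lower), the fit with at least 10 counts in every library 35 (88.6% higher against 78.6%), and leaving out a library gave 25 to 652. Scaling by library totals without TMM shifted the median of all genes by -0.15. Of the 10 genes, 1 was called with no filter on low counts (Nos2, log2 fold change 2.66), in a fit that called 0.371% of all genes. The further pathway genes stayed at 0 calls under each alternative that kept all 4 libraries. With the replicate block, which called 634 of the 11302 genes tested, 4 of the 10 were called. These were Arg1 at 2.25, Nos2 at 2.79, Ass1 at 1.07 and Slc7a2 at 1.42. Libraries of the same number deviated together with a correlation of 0.165 over 2 pairs, so that they share only a number and a pairing is not established. That fit has 1 residual degree of freedom against 2. Its estimate of spread was shared wholly over genes, so a gene's own spread between libraries did not enter its calls.

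Leaving out a library gave log2 fold changes of 1.49 to 3.06 for Arg1, 1.03 to 2.13 for Arg2, 1.92 to 4.25 for Nos2, 0.58 to 1.51 for Ass1, 1.20 to 1.67 for Slc7a2, -0.050 to 0.62 for Asl, -0.51 to 0.19 for Sms, -0.28 to -0.076 for Odc1, -0.48 to -0.17 for Srm and 0.30 to 0.52 for Sat1. Asl (-0.050) and Sms (0.19) changed sign without Trim24-deficient replicate 2, and the other 8 genes kept their direction under each alternative run. The log2 ratio difference of Arg1 to Nos2 ranged from -1.01 to -0.42 and was -0.081 with a pseudocount of 1, and that of Odc1 to Sat1 ranged from -0.63 to -0.55. The causes were not tested. Arg2 had too few counts for the filter of 10 in every library. Depth limits Arg2 and Nos2, which rest on as few as 9 and 12 counts in a library.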
